A study of Mus musculus with 8 samples.

Results

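The mouse miR-191 and miR-425 hairpins lie next to each other at 1 locus, and each gives a 5p and a 3p mature microRNA (miRNA). The 4 mature arms, mmu-miR-191-5p, mmu-miR-191-3p, mmu-miR-425-5p and mmu-miR-425-3p (the species prefix mmu is left out from here on), were chosen by name from the 1907 mature miRNAs listed. All 4 passed the filter on low counts, which left 357 miRNAs for testing. No threshold on counts entered the choice. The locus was, however, selected on knowledge of its counts in these libraries, namely the high rank of miR-191-5p and its result after LPS. Levels, ranks and arm ratios are therefore a description, and the adjusted p-values are those of the fit over all miRNAs and lend no independent support.

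Small RNA was sequenced from macrophages grown out of the bone marrow of wild-type mice aged 8 to 12 weeks. All cultures were kept for 6 days in medium with L929 supernatant, a source of the growth factor M-CSF. The LPS group (3 libraries) received 100 ng/ml LPS, a bacterial molecule that activates Toll-like receptor 4, for 3 h, and the unstimulated group (3 libraries) received none. The labels give neither the strain nor the sex of the mice, nor whether the 3 libraries of a group came from separate animals, so p-values measure the spread between these libraries, which may be technical.

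A miRNA hairpin is cut by Drosha and Dicer into a duplex of a 5p and a 3p arm. Usually one arm is kept in an Argonaute protein and finds target mRNAs through its seed, bases 2 to 8 from its 5′ end, while the other arm is mostly degraded. In human cells the pair of hairpins is transcribed from within the DALRD3 gene. miR-191 restrains enucleation of mouse erythroblasts through Riok3 and Mxi1, and miR-191-5p is a common reference in qPCR of miRNAs. miR-425 is raised by NF-κB after interleukin-1β in human gastric cancer cells, and NF-κB is also a main factor that LPS activates in macrophages.

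Sequences were taken from RefSeq (assembly GRCm38.p6), and all lie on the plus strand of chromosome 9. The mature arms are shown because each seed sets which targets an arm can find; capitals mark the seed.
miR-191-5p: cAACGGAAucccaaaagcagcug
miR-191-3p: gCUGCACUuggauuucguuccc
miR-425-5p: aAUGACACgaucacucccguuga
miR-425-3p: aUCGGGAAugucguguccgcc
The positions are chr9:108568325-108568347 for miR-191-5p, chr9:108568367-108568388 for miR-191-3p, chr9:108568789-108568811 for miR-425-5p and chr9:108568830-108568850 for miR-425-3p.

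The 4 seeds differ from one another. Of 1623 listed miRNAs with a sequence, 1 other shares a seed with a member. It is miR-489-3p, which has the seed of miR-425-5p and had 0 counts in all 6 libraries, which allows at most 0.696 to 0.914 CPM (3 counts of a library total). Each mature arm was found in 1 of the 1005 hairpins of the table, its own, so no other hairpin in that table competes for its exact sequence.

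The whole hairpins are shown to place both arms in their stem; capitals mark the mature arms, 5p first.
Mir191: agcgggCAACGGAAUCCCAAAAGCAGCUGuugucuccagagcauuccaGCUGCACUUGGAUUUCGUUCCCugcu
Mir425: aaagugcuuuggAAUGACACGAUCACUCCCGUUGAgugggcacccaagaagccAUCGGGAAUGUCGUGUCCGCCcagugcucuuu
Mir191 spans chr9:108568319-108568392 (74 bases) and Mir425 spans chr9:108568777-108568861 (85 bases), with 384 bases between them and 0 other hairpins of the table within 10 kb. Both lie inside the span of Dalrd3 (chr9:108567484-108572773). The gene table gives spans only, so exon, intron and UTR were not assigned.

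In the minimum free energy fold, which is a prediction, Mir191 reached -35 kcal/mol and Mir425 -31.7 kcal/mol. Of the bases of miR-191-5p, 17 of 23 paired with miR-191-3p. In Mir425, 14 of the 23 bases of miR-425-5p paired with miR-425-3p. The abundant arms begin with C (miR-191-5p) and A (miR-425-5p), whereas U led 51.6% of 91 abundant arms with a known sequence among all hairpins with both arms tested, C 20.9% and A 22.0%.

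The libraries held 3280688 to 4105395 miRNA counts after LPS and 3912296 to 4312555 counts without it. Of 8 myeloid markers, 7 had at least 10 counts in every library, and miR-142a-3p was at 0. Their summed level was 479958 to 541959 CPM in LPS libraries and 473607 to 529087 CPM in unstimulated ones. Most of this sum was miR-22-3p (mean 234009 CPM) and miR-21a-5p (217391 CPM), so it mainly follows these 2. miR-142a-5p stood at 56658 CPM, miR-223-3p at 2309, miR-223-5p at 362, miR-511-3p at 207 and miR-511-5p at 33.7 CPM. Erythroid markers, which matter here because miR-191 is known from erythroblasts, summed to 0.49 to 1.58 CPM after LPS and 0 to 0.485 CPM without it, with miR-144-3p and miR-486a-5p at 0. All 5 epithelial markers had at least 10 counts in every library and summed to 203 to 270 CPM after LPS and 220 to 252 CPM without it. Of 5 miRNAs listed as lymphocyte markers 3 did, with sums of 184 to 212 CPM after LPS and 169.7 to 190.5 CPM without it. miR-205-5p, in that list although it is not specific to lymphocytes, was at 0, which is not read as a result about them. The 5 stromal and 2 endothelial markers summed to at most 2.21 CPM and 0.242 CPM in any library, with miR-145a-5p, miR-199a-5p and miR-126a-5p at 0. A 0 or a low sum in these counts does not show that a cell type was absent. The myeloid marker miR-142a-3p was at 0 too, although miR-142a-5p from the same hairpin stood at 56658 CPM. The part of these other cell types' markers in the results was not tested. The cells responded to LPS, since both arms of miR-155 rose (log2 fold change 2.75, SE 0.38, for miR-155-5p and 6.85, SE 0.27, for miR-155-3p). Unstimulated replicate 1 stood apart from the other unstimulated libraries, with a chi-square per degree of freedom of 233 against replicate 2 and 127 against replicate 3, where replicates 2 and 3 gave 53. Results that change without it are given both ways.

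In the deposited counts of these macrophages miR-191-5p was one of the main miRNAs, and the other arms of the locus were far scarcer. Levels are CPM, which are deposited counts scaled to equal library sizes with TMM factors. miR-191-5p stood at 65955, 60808 and 64958 CPM in the LPS libraries and at 72905, 54136 and 56210 CPM in the unstimulated libraries. The highest and the lowest value were both unstimulated, so the groups overlapped. This overlap came from unstimulated replicate 1 alone, and both other unstimulated libraries lay below every LPS library. By mean level miR-191-5p was number 4 of the 1907 miRNAs listed, between miR-27b-3p and miR-142a-5p, and its rank ran from 3 to 5 across libraries. Ranks and shares hold for the deposited counts only, in which miR-142a-3p had 0 counts and miR-24-3p 0 to 1 counts. How multi-mapping reads were counted is not given. The ranges of these 3 miRNAs overlapped, at 59529 to 81740 CPM for miR-27b-3p and 52258 to 62148 CPM for miR-142a-5p, so this order lay within the spread of the libraries.

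miR-425-5p, the abundant arm of the other hairpin, stood at 2115, 1900 and 1854 CPM after LPS and at 1759, 1853 and 2026 CPM without it. It ranked 44 by mean level, next to miR-351-5p and miR-501-3p, with ranks of 40 to 46 in single libraries. LPS replicate 1 was highest and unstimulated replicate 1 lowest, and the rest lay between them in mixed order.

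miR-425-3p, the minor arm of that hairpin, stood at 162.7, 96.3 and 154.0 CPM after LPS and at 110.8, 137.8 and 151.5 CPM without it. LPS libraries held both its highest and its lowest value, the lowest in LPS replicate 2 and the others above every unstimulated library. It ranked 114, between miR-188-5p and miR-99b-3p, with ranks of 107 to 135.

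miR-191-3p, the minor arm of the most abundant hairpin of the locus, was the scarcest member. It had 76, 135 and 93 counts in LPS libraries and 67, 126 and 118 counts in unstimulated libraries. These counts correspond to 24.1, 33.1 and 23.6 CPM after LPS and to 15.9, 30.6 and 28.6 CPM without it. Unstimulated replicate 1, which was highest for miR-191-5p, was lowest here. miR-191-3p ranked 202, between miR-93-3p and miR-671-5p, with ranks of 188 to 227. For all 4 arms the ranges of both rank neighbours overlapped that of the member.

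**Figure D1:**
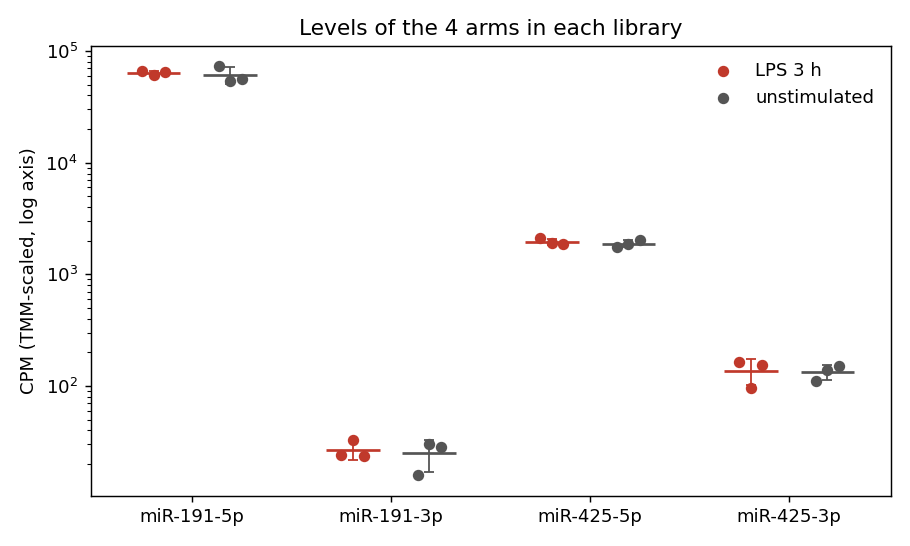
Level of each arm in CPM on a log axis, with 1 point per library, the group mean as a bar and the SD as whiskers (n = 3 per group). LPS and unstimulated points overlap for every arm, for miR-191-5p through unstimulated replicate 1 alone, from about 62495 CPM (mean of 6 libraries) for miR-191-5p to 25.97 CPM for miR-191-3p.

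Together the 4 arms took 6.57%, 6.42% and 6.43% of all miRNA counts in LPS libraries and 7.31%, 5.92% and 6.01% in unstimulated libraries. The LPS values lay inside the unstimulated range, whose upper end is unstimulated replicate 1. The means were 6.48% ± 0.0844 after LPS and 6.41% ± 0.778 without it (SD, n = 3 each; two-sided exact permutation p = 1, where the smallest possible p is 0.1). With unstimulated replicate 1 left out, every LPS share lay above both unstimulated shares, by 0.514 percentage points on average (two-sided exact permutation p = 0.1, the smallest possible).

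The next comparison asked whether 3 h of LPS altered the members. None of the 4 arms passed edgeR's quasi-likelihood test for a change (adjusted p below 0.05), in which 5.04% of all 357 miRNAs were called. None reached an unadjusted p of 0.05 either (lowest 0.602), and DESeq2 and limma-voom called 0 of the 4. In 0 of the 4 did the LPS and unstimulated libraries separate fully, as they did in 16% of all tested miRNAs. Among the 5 libraries without unstimulated replicate 1 they separated in 1 of the 4, miR-191-5p, and in 23% of all tested miRNAs. The median log2 fold change of the 4 arms was 0.06, beside 0.01 over all tested miRNAs.

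The fitted log2 fold change of miR-191-5p was 0.07 (SE 0.12, edgeR adjusted p = 0.943), from means of 63907 ± 2730 CPM after LPS and 61084 ± 10290 CPM without it (SD, n = 3 each). Its 95% interval ran from 0.868-fold to 1.26-fold. For miR-425-5p the log2 fold change was 0.06 (SE 0.11, edgeR adjusted p = 0.943), with 1956 ± 139.1 CPM after LPS and 1879 ± 135.4 CPM without it, and an interval of 0.881-fold to 1.23-fold. A larger change of either 5p arm than these bounds lies outside the interval, and a smaller one could not be told from none.

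The minor arms left wider margins. miR-425-3p averaged 137.7 ± 36.1 CPM after LPS and 133.4 ± 20.7 CPM without it (log2 fold change 0.04, SE 0.20, edgeR adjusted p = 0.992; interval 0.756-fold to 1.41-fold). miR-191-3p averaged 26.9 ± 5.35 CPM after LPS and 25.0 ± 7.96 CPM without it (log2 fold change 0.11, SE 0.26, edgeR adjusted p = 0.951; interval 0.722-fold to 1.61-fold). Without unstimulated replicate 1 the log2 fold changes were 0.17 for miR-191-5p, -0.17 for miR-191-3p, -0.03 for miR-425-5p and -0.12 for miR-425-3p, and none passed (edgeR adjusted p = 0.497 for miR-191-5p, the lowest of the 4).

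**Figure D2:**
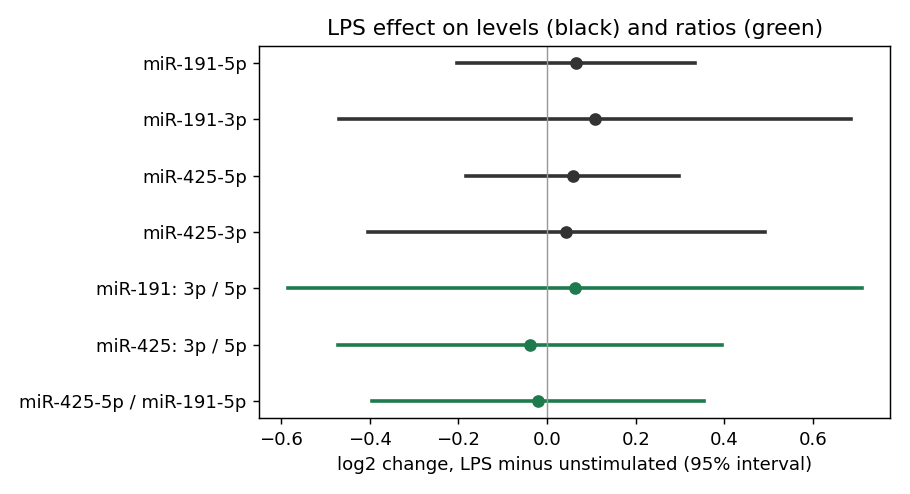
Fitted LPS effect on a log2 scale (points) with its 95% interval (lines), for the level of each arm in black and for 3 ratios in green, each as LPS minus unstimulated. All 7 intervals include 0, and those of the 5p arms are the narrowest, at -0.20 to 0.33 for miR-191-5p and -0.18 to 0.30 for miR-425-5p.

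The arms of the 2 hairpins were split very differently. In Mir191 the 5p arm outnumbered the 3p arm 2742-fold, 1838-fold and 2753-fold in LPS libraries and 4585-fold, 1771-fold and 1965-fold in unstimulated libraries. In Mir425 the 5p arm outnumbered the 3p arm 13-fold, 19.7-fold and 12.0-fold after LPS and 15.9-fold, 13.4-fold and 13.4-fold without it. The ratio of Mir191 thus exceeded that of Mir425 in every library.

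Among 100 hairpins with both arms past the filter, miR-191 had the most uneven split, with a mean log2 ratio of the less abundant to the abundant arm of -11.23. miR-10a (-10.58) and miR-22 (-10.40) followed. miR-425 stood at -3.84, number 48 in this order, between miR-210 (-3.85) and miR-1198 (-3.84) and close to the median of -3.77. In the 86 hairpins whose arms each match 1 hairpin of the table, the orders were 1 and 40. With unstimulated replicate 1 left out, miR-191 was still number 1 (-11.06) and miR-425 number 48 (-3.81). Hairpins whose minor arm had too few counts are not in this order, so it cannot show whether miR-191 was the most uneven of all. Among those left out are the hairpins of miR-142a-5p and miR-30e-5p, whose other arms were listed at 0. Another is that of miR-23b-3p (mean 3581 CPM), whose 5p arm had only 2 to 6 counts per library. The 5p arm was the abundant one in 55 of the 100 hairpins, as in both members.

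**Figure D3:**
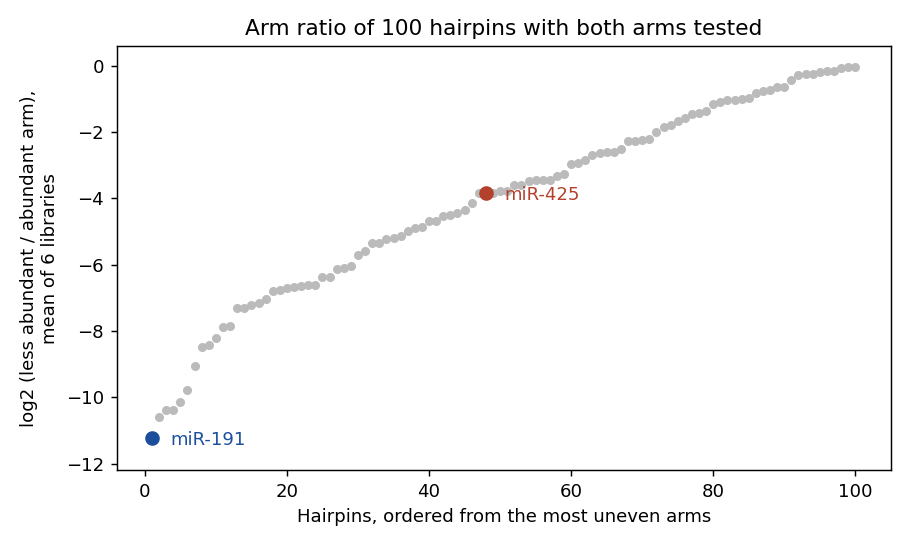
Log2 ratio of the less abundant to the abundant arm (vertical axis, mean of 6 libraries) for 100 hairpins ordered from the most to the least uneven (horizontal axis). miR-191 is at the far end at -11.23, and miR-425 lies mid-way at -3.84.

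Neither split passed the test for a change after LPS. miR-191-3p made up 0.0365%, 0.0544% and 0.0363% of the counts of its hairpin in LPS libraries and 0.0218%, 0.0564% and 0.0509% in unstimulated libraries. miR-425-3p made up 7.14%, 4.82% and 7.67% after LPS and 5.93%, 6.92% and 6.96% without it. In both hairpins LPS and unstimulated libraries overlapped, whereas they separated in 19% of the 100 hairpins. They overlapped in both also among the libraries without unstimulated replicate 1, where 27% of the 100 hairpins separated. The change of the 3p over the 5p arm, LPS minus unstimulated, was 0.06 on the log2 scale for miR-191 (SE 0.30, limma adjusted p = 0.942; interval 0.667-fold to 1.64-fold). For miR-425 it was -0.04 (SE 0.20, limma adjusted p = 0.944; interval 0.722-fold to 1.31-fold). The same fit called 12% of the 100 hairpins.

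Single libraries stood apart in these shares. The exact (Clopper-Pearson) 95% interval of the miR-191-3p share was 0.0169% to 0.0277% in unstimulated replicate 1, below the lowest bound of any other library (0.0287%, LPS replicate 1). For miR-425-3p the interval of LPS replicate 2, 4.37% to 5.31%, lay below that of every other library, the next lower bound being 5.42%. These intervals cover counting error only. Without unstimulated replicate 1 the arm difference of miR-191 was -0.36, and without LPS replicate 2 those of miR-191 and miR-425 were -0.13 and 0.18, none of which passed.

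Within the locus, counts came almost wholly from 1 arm. miR-191-5p made up 96.8% ± 0.17 of locus counts after LPS and 96.7% ± 0.679 without it (SD, n = 3 each). miR-425-5p made up 2.96% ± 0.174 after LPS and 3.04% ± 0.602 without it, and the 3p arms the rest. miR-191-5p outnumbered miR-425-5p 31.2-fold, 32-fold and 35.04-fold in LPS libraries and 41.5-fold, 29.2-fold and 27.7-fold in unstimulated libraries. Unstimulated libraries again held both extremes, so the groups overlapped, whereas the ratios of 28.6% of 35 neighbouring hairpin pairs separated by group. Unstimulated replicate 1 alone made this overlap too, since the other unstimulated ratios were below every LPS ratio; without it 34.3% of the 35 pairs separated.

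For the 3p arms the order of the hairpins was the other way round. miR-425-3p outnumbered miR-191-3p 6.76-fold, 2.91-fold and 6.53-fold after LPS and 6.97-fold, 4.51-fold and 5.30-fold without it. The hairpin with the scarcer 5p arm thus had the more abundant 3p arm in all 6 libraries. Such a crossing was also looked for in the 21 neighbouring pairs whose arms each match only their own hairpin. This restriction was chosen after the values were seen, and the other pairs of the 35 were not compared this way. Minor arms could be compared in 12 of the 21. By their means 7 crossed, Mir425 with Mir191 included. In 6 of these pairs the minor arms had the reverse of the abundant arms' mean order in all 6 libraries. Among these 6 pairs were Mir106b with Mir93, Mir212 with Mir132 and Mir27a with Mir23a, named after their values were seen. This count does not follow the abundant arms by library, and those of Mir27a and Mir23a were nearly even (mean log2 ratio -0.045). It is therefore not a count of pairs that crossed in every library. Some of the 12 pairs share a hairpin, such as Mir362 with Mir501 and Mir362 with Mir188. How common crossing is among neighbouring pairs was therefore not settled. The fold values are ratios of read counts, and how counts of different sequences relate to molecule numbers was not measured.

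The ratio of miR-425-5p to miR-191-5p did not change detectably. Its difference, LPS minus unstimulated, was -0.02 on the log2 scale (SE 0.16, limma adjusted p = 0.963; interval 0.761-fold to 1.28-fold). The fit covered 35 pairs of consecutive hairpins within 10 kb on 1 strand, of which it called 0 (0%), with 7 at an unadjusted p below 0.05. Without unstimulated replicate 1 the difference was -0.20 (limma adjusted p = 0.31, the lowest of its alternatives, which reached 0.999).

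Set among those 35 pairs by evenness, Mir425 and Mir191 came at number 9, with a mean 32.5-fold excess of miR-191-5p. Next to them were Mir16-2 with Mir15b (32.7-fold) and Mirlet7f-2 with Mir98 (27.5-fold), where Mir16-2 and Mirlet7f-2 entered with their 3p arms. The median excess over the 35 pairs was 6.57-fold. In the 21 pairs in which every arm matches 1 hairpin of the table, a restriction chosen after the values were seen, the pair was number 3, after Mir503 with Mir322 (146.5-fold) and Mir96 with Mir182 (116.1-fold).

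The arms differed in how alike they were across libraries. The likeness of 2 miRNAs was measured by the root mean square difference of their log2 CPM, each centred on its mean over 6 libraries. From miR-191-5p, this difference was 0.189 to miR-425-5p, 0.333 to miR-425-3p and 0.469 to miR-191-3p, where the median over the 356 other tested miRNAs was 0.268. In order of likeness to miR-191-5p these were numbers 90, 253 and 312. Leaving out unstimulated replicate 1 gave differences of 0.115, 0.273 and 0.278 and numbers 38, 219 and 224. miR-425-5p was thus nearer to miR-191-5p by this measure than most miRNAs were, and the 3p arms were not. The measure also depends on each miRNA's own spread, so nearness does not show that 2 miRNAs rose and fell together. On the log2 scale miR-191-5p deviated by 0.09, -0.03 and 0.06 in LPS and by 0.23, -0.20 and -0.15 in unstimulated libraries. In the same order miR-425-5p deviated by 0.14, -0.01 and -0.05 and by -0.12, -0.05 and 0.08. The miRNAs nearest to miR-191-5p were let-7i-5p (0.0608), let-7j (0.0784) and miR-21a-5p (0.0833).

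The arms of Mir191 deviated in opposite directions in all 6 libraries: where miR-191-5p lay above its own mean, miR-191-3p lay below, and the reverse. LPS replicate 2 had miR-191-5p at -0.03 and miR-191-3p at 0.38 on the log2 scale. Unstimulated replicate 1 had the widest gap, with miR-191-5p at 0.23 and miR-191-3p at -0.65. Among the 100 hairpins, 1 had opposite signs in all 6 libraries, miR-191 itself, and 5 had the same sign in all 6. Without unstimulated replicate 1, with means over the 5 libraries left, the signs for miR-191 were opposite in 4 of 5, and 2 of the 100 hairpins had opposite signs in all 5. The arms of Mir425 had the same sign in 4 of 6 libraries. Deviations from a mean over the same 6 libraries are not independent of each other, and the 3p arm rests on 67 to 135 counts, so this is a description of these libraries.

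**Figure D4:**
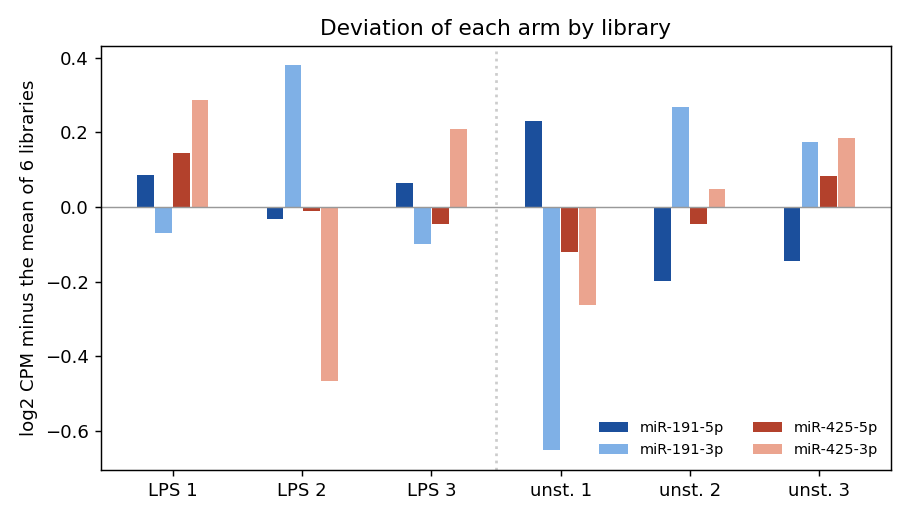
Deviation of each arm's log2 CPM from its own mean over 6 libraries (bars), by library, with LPS libraries on the left. The dark and light blue bars of miR-191 point in opposite directions in every library, for instance at -0.03 and 0.38 in LPS replicate 2 and at 0.23 and -0.65 in unstimulated replicate 1.

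Near miR-425-5p lay miR-484 (0.0386), miR-22-3p (0.0454) and miR-221-3p (0.0598). miR-191-3p was most like miR-92b-3p (0.137), let-7f-2-3p (0.152) and miR-200b-3p (0.164), and miR-425-3p most like miR-15a-3p (0.116), miR-130a-3p (0.129) and miR-669c-5p (0.13). For miR-425-3p the other arm of its hairpin, miR-425-5p, was number 44 of 356 in order of likeness, at 0.236.

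Since miR-191-5p often serves as a qPCR reference, its spread over libraries was set beside 15 miRNAs used in that role, miR-191-5p included. Of these, 14 were tested and 0 were called by edgeR, with 5.04% called over all miRNAs; miR-24-3p had 0 to 1 counts and was not tested. The SD of log2 CPM over the 6 libraries was 0.159 for miR-191-5p, number 8 of the 14 from the smallest and number 91 of all 357, where the median was 0.239. miR-30e-5p (0.0374), miR-93-5p (0.0378), miR-186-5p (0.0542), miR-361-5p (0.0751) and miR-92a-3p (0.0763) varied less, with miR-423-3p (0.145) and miR-16-5p (0.157) close to it.

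miR-25-3p (0.171), let-7a-5p (0.171), miR-103-3p (0.241), miR-26a-5p (0.248), miR-423-5p (0.255) and miR-345-5p (0.413) varied more. In the same order they had 10674 to 19128, 370 to 469, 230 to 348, 144 to 252, 2740 to 6157 and 47 to 146 counts per library. miR-191-5p had 208359 to 307162, and miR-16-5p, which varied less, 410 to 526. Counting noise is larger at lower counts, so the order among the 14 does not compare miRNAs at like level. Also, miR-16-5p, miR-92a-3p, miR-103-3p and miR-26a-5p each match 2 hairpins of the table. How reads that match several places were counted is not given, and its part in their counts was not tested. The SD of miR-191-5p without unstimulated replicate 1 was 0.125, number 6 of the 14, and that of miR-191-3p was 0.21. The highest library of miR-191-5p was 1.35 times the lowest. That of miR-30e-5p was 1.08 times the lowest. Of the 40 miRNAs nearest to miR-191-5p in level, its peers here, 20 had a smaller SD, so it stood in the middle of these 40. Few miRNAs were as abundant as miR-191-5p (mean 62495 CPM), so its peers include far scarcer ones. The peer with the largest SD was miR-155-5p (mean 2661 CPM), which rose after LPS. miR-425-5p had an SD of 0.0966, smaller than that of miR-191-5p, and 5 of its 40 peers lay below it. Over all 6 libraries miR-425-3p (0.3) and miR-191-3p (0.371) varied more than most of their peers, with 34 and 28 of 40 below them. Without unstimulated replicate 1, miR-191-3p (0.21) was number 166 of 357 and below the median of 0.225. miR-425-3p (0.302) was then number 250.

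**Figure D5:**
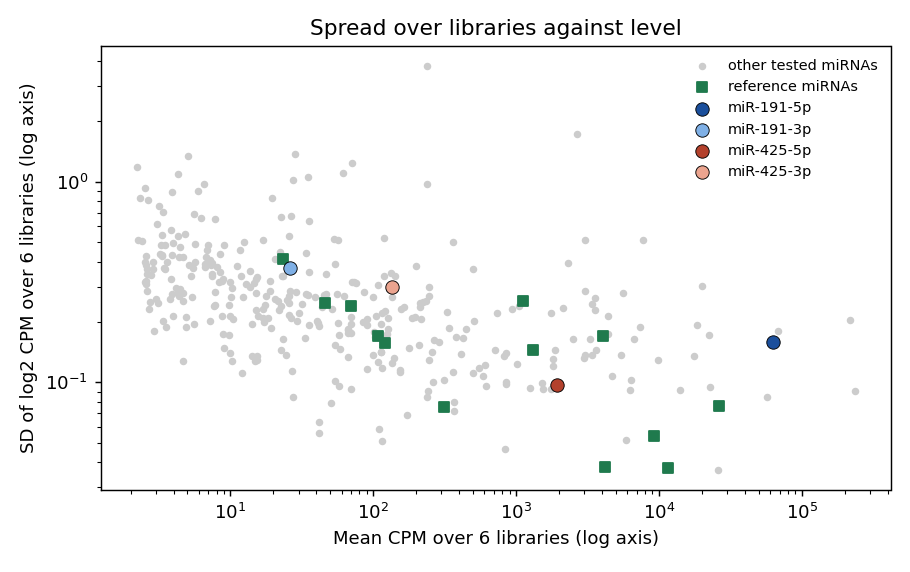
SD of log2 CPM over 6 libraries (log axis) against mean CPM (log axis) for the 357 tested miRNAs, with reference miRNAs as green squares and the 4 arms as coloured circles. miR-191-5p, at 0.159, lies above reference miRNAs of high level such as miR-30e-5p at 0.0374, and miR-425-5p, at 0.0966, lies lower.

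Log2 fold changes of the 14 reference miRNAs after LPS ran from -0.29 (miR-423-5p) to 0.13 (miR-103-3p), with a median of -0.00297. When all libraries were scaled to the miR-191-5p count alone, as in qPCR with 1 reference, the log2 fold changes of all miRNAs moved by a median of -0.083. Under this scaling edgeR called 15 of 356 miRNAs, 11 higher and 4 lower after LPS, and 14 of them were among the 18 called with TMM factors. The calls lost were miR-222-3p, miR-26b-3p, miR-210-5p and miR-99b-3p and the one gained was miR-147-3p, all named after their values were seen. With this scaling the log2 fold changes of miR-191-3p, miR-425-5p and miR-425-3p were -0.01, -0.04 and -0.07, and none passed.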

How the data were processed

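The deposited tables hold raw counts as whole numbers, which the values show to be unscaled. Per the submitters' processing notes, the assembly was GRCm38.p1 (mm10) and the tools were Novoalign and SAMtools 0.1.19. How reads were counted, with which miRNA annotation and with what treatment of multi-mapping reads, is not given in the sources used here. Per the labels' protocols, total RNA was isolated with Tri Reagent and the TruSeq Small RNA kit was used for libraries. The 2 chromosome conformation samples of the series were not analysed here.

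Of 1907 miRNAs, 941 had a count. Counts were tested with edgeR 4.0.16 (quasi-likelihood F test, TMM factors of 0.96 to 1.053, filterByExpr with a minimum count of 10) in R 4.3.3, with Benjamini-Hochberg adjustment over 357 miRNAs that held 99.974% of counts. The 95% intervals come from the fitted standard errors. Arm differences and ratios of consecutive hairpins were tested with limma 3.58.1 on log-CPM (prior count 2, variance trend). DESeq2 1.42.0, limma-voom, other scalings and filters, a replicate block and leaving out each library were alternatives. SDs of log2 CPM used a pseudocount of 0.508 CPM. Hairpins were folded with ViennaRNA 2.7.2. The scripts were tested on simulated data.

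The members and lists were chosen with earlier results of these data known. Besides the 4 arms, the text names rank neighbours, seed sharers, the 3 most alike miRNAs of each arm, neighbours in the orders of ratios, the reference list, and miR-155 as a check of the response. Libraries of a group differed by more than sampling noise (chi-square per degree of freedom from 53 up), so each was used as its own sample. Intervals from counts cover counting error only, since reads carry no molecular identifiers.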

Additional observations from a re-analysis of the deposited data

How the results depend on the processing

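No alternative gave a member, arm difference or ratio an adjusted p below 0.05 (edgeR 0.497 or more, limma 0.31 or more), but signs of these values near 0 were not stable. Upper-quartile factors gave log2 fold changes of -0.0036 (miR-425-5p) and -0.022 (miR-425-3p), library totals -0.023 (miR-425-3p), and scaling to miR-191-5p -0.0095 (miR-191-3p), -0.039 (miR-425-5p) and -0.073 (miR-425-3p). Leaving out 1 library gave -0.0046 to 0.17 for miR-191-5p, -0.17 to 0.29 for miR-191-3p, -0.035 to 0.15 for miR-425-5p and -0.13 to 0.25 for miR-425-3p. It gave arm differences of -0.36 to 0.31 (miR-191) and -0.18 to 0.18 (miR-425), a ratio difference of -0.20 to 0.090, and a share of the 4 arms lower by 0.182 to higher by 0.514 percentage points (-0.182 to 0.514, the highest without unstimulated replicate 1, at exact permutation p = 0.1). The cause was not tested. Counts over all miRNAs moved to 8 higher with upper-quartile factors, and to 8 lower with no filter and 3 lower with a minimum count of 50; without 1 library they were 9 to 13 higher and 2 (LPS replicate 3) to 6 lower. Without the variance trend 7 hairpins were called, and 8 to 14 without 1 library. The replicate block, which gave miR-191-5p 0.077, called 11 higher and 6 lower; it called 1 neighbouring pair, Mir30c-1 with Mir30e, as did leaving out LPS replicate 2 (0 to 1 over the left-out libraries). Same-numbered libraries correlated at 0.0247, 0.144 and -0.0397 in their deviations, and not every library was most like its own number, so the numbers are not taken as pairs. The restriction to 21 pairs was added after seeing the data and called 0. With 67 to 135 counts of miR-191-3p per library, changes of this arm inside its interval were not detectable.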
